A study of Mus musculus with 6 samples.

Results

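The levels of 31 cholesterol genes were examined in oocytes of naturally aged female mice that drank water with or without aminophylline. The members were chosen by gene symbol for their place in cholesterol synthesis, sensing, uptake, release, export and storage, and all 31 were among the 25631 genes of the deposited table. They comprised 8 genes of the mevalonate route, 3 genes of the steps from squalene to lanosterol, 9 genes acting after lanosterol, 5 genes of sterol sensing, 3 genes of uptake and lysosomal release, and 3 genes of export and esterification. The list does not hold every enzyme of the pathway.

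Oocytes were punctured from the large antral follicles of mice that had been injected with equine chorionic gonadotropin to stimulate the growth of their follicles. The mice were 14-month-old ICR females. The aminophylline group (n = 3 libraries) received 4 mM aminophylline, a theophylline derivative that inhibits phosphodiesterases, in drinking water for 1 week and then water only for 3 weeks, and the control group (n = 3 libraries) received water without the drug. This is the schedule the study describes for its aged mice, and the day on which oocytes were taken for sequencing is not stated. The numbers of mice and oocytes behind a library are not given in the sources used here, so p-values measure the spread between these libraries, which may in part be technical.

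Cells make cholesterol from acetyl-CoA through mevalonate, isoprenoid units, squalene and lanosterol. When sterols in the endoplasmic reticulum are low, SCAP escorts the SREBP transcription factors to the Golgi, where they are cut and released to turn on the genes of synthesis, while the INSIG proteins hold SCAP back when sterols are high. In the ovarian follicle, mouse oocytes are known to synthesize little cholesterol themselves and to obtain much of it from the surrounding cumulus cells, and excess sterol is exported by ABC transporters or esterified for storage in lipid droplets.

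Because SREBP acts on promoters, the promoters of 4 members are shown with the letters of its known element and of the motifs bound by factors that often act beside it. Soat1 and Sc5d are shown because they were the members called lower in the aminophylline group at the threshold given below. Hmgcs1 and Insig1 are shown because they are textbook SREBP targets with high levels in these oocytes. Each line gives the 250 bases before the annotated start of the gene, 5′ to 3′ on the gene's strand, from RefSeq on GRCm38.p6, with motif matches on either strand in capitals. The windows lie at chr1:156474329-156474578 on the minus strand for Soat1, at chr9:42264301-42264550 on the minus strand for Sc5d, at chr13:119690101-119690350 on the plus strand for Hmgcs1 and at chr5:28071162-28071411 on the plus strand for Insig1.
Soat1: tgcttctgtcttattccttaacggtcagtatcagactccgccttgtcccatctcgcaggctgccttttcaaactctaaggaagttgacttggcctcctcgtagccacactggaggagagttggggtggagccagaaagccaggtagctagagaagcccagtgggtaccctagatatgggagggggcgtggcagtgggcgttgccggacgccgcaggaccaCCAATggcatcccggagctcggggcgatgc
Sc5d: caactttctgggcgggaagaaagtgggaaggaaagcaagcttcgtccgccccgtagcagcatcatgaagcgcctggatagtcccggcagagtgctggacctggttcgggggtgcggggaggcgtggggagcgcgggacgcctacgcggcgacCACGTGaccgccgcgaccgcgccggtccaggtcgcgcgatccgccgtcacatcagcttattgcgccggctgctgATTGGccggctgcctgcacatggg
Hmgcs1: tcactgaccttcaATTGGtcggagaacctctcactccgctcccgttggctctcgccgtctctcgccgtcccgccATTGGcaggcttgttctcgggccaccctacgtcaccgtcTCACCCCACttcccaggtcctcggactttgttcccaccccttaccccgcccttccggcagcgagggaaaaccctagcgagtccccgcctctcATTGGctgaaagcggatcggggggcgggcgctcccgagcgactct
Insig1: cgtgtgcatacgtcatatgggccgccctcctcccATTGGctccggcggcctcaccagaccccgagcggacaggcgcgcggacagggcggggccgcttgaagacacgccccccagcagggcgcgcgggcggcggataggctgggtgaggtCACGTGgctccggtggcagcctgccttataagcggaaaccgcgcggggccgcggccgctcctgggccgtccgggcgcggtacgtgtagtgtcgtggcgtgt

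The capitals mark the sterol regulatory element TCACNCCAC, the NF-Y box CCAAT, which can also be read on the opposite strand as ATTGG, and the E-box CACGTG, and no match overlapped another in these windows. Promoters of 25 of the 31 members were matched in RefSeq, in windows that run from 250 bases before to 50 bases after the start. Fdft1, Fdps, Sqle, Abcg1, Scarb1 and Npc1 had no promoter there and were not searched. TCACNCCAC was found in 1 of the 25 members, Hmgcs1, where it lies at positions -137 to -129 from the start, and in 1.44% of the 27025 genes with a promoter in the table. CCAAT was found in 22 of the 25 members, or 88%, compared with 41.1% of all genes, where a gene counted if any of its promoters matched. Counted per promoter, it was found in 23 of 33 promoters of members and in 37.4% of all 32851 promoters. Among genes whose levels were high enough to be tested, it was found in 88.9% of 18 members and in 43.9% of 8282 genes. CACGTG was found in 6 of the 25 members, or 24%, compared with 8.09% of all genes, and in 7 of 33 promoters of members, compared with 7.15% of all promoters. Among genes that were tested, it was found in 22.2% of the 18 members and in 11.1% of the 8282 genes. Soat1 held a CCAAT match at -30 and Sc5d held a CCAAT match at -24 and a CACGTG match at -98, so the lower members shared the CCAAT box with most of the other members. A match is a description of letters in the window, and a window without a match says nothing about binding elsewhere.

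The 6 libraries held 14112341 (control 2) to 33641283 (control 1) reads, as recovered from the deposited FPKM values (fragments per length of transcript, scaled to the size of the library). The 12 oocyte markers summed to 19849 to 27331 FPKM, and each was above 1 FPKM in every library, with Kit the lowest at 8.60 to 25.9 FPKM. Markers of granulosa and cumulus cells summed to 16.4 to 24.7 FPKM over 12 genes, of which 3 reached 1 FPKM in any library. These were Cyp19a1 (7.37 to 15.7 FPKM), Nr5a2 (4.43 to 8.53 FPKM) and Inha (0.417 to 1.66 FPKM). Amh was at 0 in 5 of the 6 libraries and Foxl2 reached at most 0.197 FPKM. Cyp19a1 was highest in control 1, and the part of granulosa and cumulus cells in the results below was not tested. Markers of theca and stroma summed to 3.61 to 8.31 FPKM, and those of erythrocytes to at most 0.585 FPKM. Control 1 stood apart in macrophage markers, which summed over 13 genes to 266 FPKM there and to 82.8 to 104 FPKM in the other 5 libraries, where C1qb alone made up most of the sum. Lyz2 was at 66.4 FPKM and Fcer1g at 57.6 FPKM in control 1, and neither exceeded 0.573 FPKM in another library. Values without control 1 are therefore given below for the members that differed most between the groups.

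The cholesterol genes spanned a wide range of levels in the oocytes. Fdft1, which encodes squalene synthase and thereby commits isoprenoids to sterols, had the highest FPKM of the 31 genes in all 6 libraries, with a mean over 6 libraries of 100.5 FPKM, and alone made up 22.6% of their summed mean. A mean of at least 10 FPKM was found for 13 members, and a mean of at least 1 FPKM for 24. The other 7 members, Insig2, Pmvk, Dhcr7, Lss, Srebf2, Mvk and Abca1, stayed under 1 FPKM in every library with the deposited lengths.

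The levels were ordered by the mean FPKM of the 6 libraries, from Fdft1 over Insig1 (49.0 FPKM), Npc2 (43.6 FPKM), Lbr (41.8 FPKM) and Hmgcs1 (31.7 FPKM) down to Abca1 (0.0115 FPKM). Of the 30 pairs of neighbours in this order, 28 overlapped in their ranges over the libraries. Only Fdft1 above Insig1 and Abcg1 (12.7 FPKM) above Hsd17b7 (5.82 FPKM) had ranges that did not overlap. Summed over the 31 genes, the level lay between 364.8 and 519.0 FPKM in a library.

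The FPKM of a gene depends on the transcript length it is divided by, and the length behind the deposited values was compared with the longest transcript of GENCODE M21. Fdft1 was divided by 10420 bases, compared with 3698 bases in GENCODE, and would reach 283 FPKM with the shorter length. It was at the top of the order with either length, and a shorter length could only raise it. The rescaled values keep all reads of a gene, and whether these reads lie within the GENCODE transcript was not tested. Soat1 was divided by 4808 bases, compared with 8371 bases in GENCODE, and would fall from 19.4 to 11.2 FPKM, from place 8 to place 13 in the order. Fdps, divided by 1461 bases compared with 2953 bases, would fall from 22.7 to 11.2 FPKM. Insig2 was divided by 7015 bases, compared with 2697 bases, and Pmvk by 3401 bases, compared with 1194 bases, and their means of 0.693 and 0.447 FPKM would be 1.80 and 1.27 FPKM with the lengths of GENCODE. The ratio of a gene's FPKM between libraries does not depend on the length, but the filter at 1 FPKM and the difference of log2(FPKM + 1) do.

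In the GENCODE annotation, 12 of the 31 members share exon bases with another gene. For 10 of them a partner lies on the opposite strand, and whether the counting used strand is not given in the sources used here. On the same strand, Fdps shares 1124 bases, or 26.7% of its annotated exon bases, with Gm43738. Tm7sf2 shares 532 bases, or 12.1%, with Vps51, which was at 0.305 to 1.40 FPKM. On the opposite strand, Fdft1 shares 774 bases, or 18.3% of its annotated exon bases, with Ctsb, which was at 17.9 to 30.9 FPKM. Opposite-strand partners also concern Scap (985 bases, with an uncharacterized transcript), Hmgcs1 (557 bases) and Npc1 (511 bases, with Rmc1). Reads from bases shared between strands cannot be told apart unless the counting used strand. Strand does not separate reads from bases shared on the same strand. Soat1, Sc5d, Msmo1, Abcg1 and Mvd shared no exon bases with another gene.

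**Figure D1:**
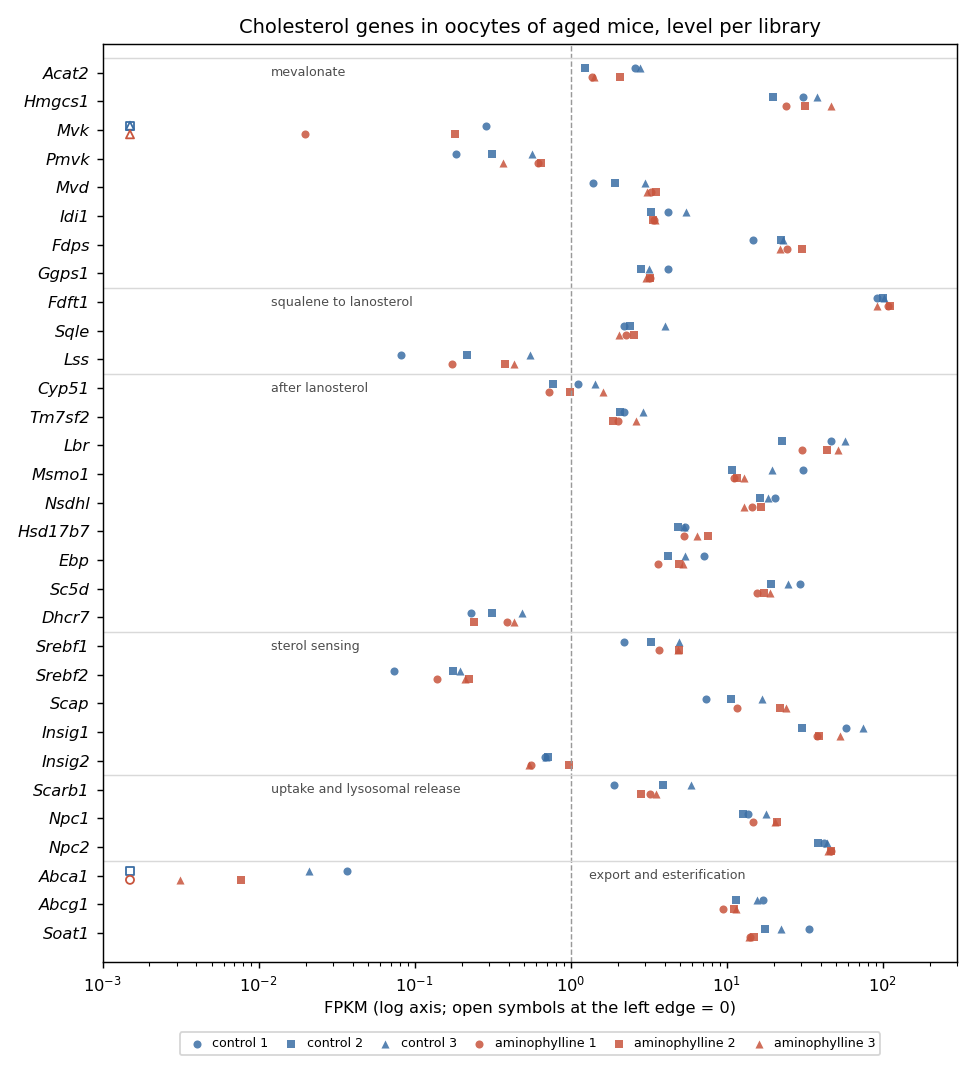
FPKM of the 31 cholesterol genes (log axis) in each library, ordered by their step in the pathway. Blue symbols are the 3 control and red symbols the 3 aminophylline libraries, with replicates 1, 2 and 3 as circles, squares and triangles. Open symbols at the left edge are values of 0, and the dashed line marks 1 FPKM. Fdft1 lies to the right of every other gene, and 7 genes lie left of the dashed line in every library.

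Compared with control, aminophylline was accompanied by lower Soat1, the enzyme that esterifies cholesterol for storage, and lower Sc5d, a desaturase near the end of synthesis. No member of the list passed the call threshold as higher in the unpaired comparison. With libraries of the same number compared as pairs (the replicate block), Scap and Mvd passed as higher and Msmo1 also as lower, as given below. The labels do not state that libraries of the same number belong together. Soat1 fell from 24.6 ± 8.23 FPKM (SD, n = 3) to 14.3 ± 0.553 FPKM (SD, n = 3), and Sc5d from 24.4 ± 5.13 to 17.2 ± 1.67 FPKM. The unpaired calls used an unadjusted p under 0.05 from limma on log2(FPKM + 1), the first level of significance in the study, and neither gene passed after Benjamini-Hochberg adjustment over the 10340 genes tested. In bulk oocyte RNA, a lower level per oocyte cannot be told apart from fewer cells of another type that carries the transcript.

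Genes were tested if they reached 1 FPKM in at least 3 of the 6 libraries, which 24 of the 31 members did. The count of members called higher was 0 of 24, compared with 4.41% of all genes tested. The count called lower was 2 of 24, compared with 2.84% of all genes tested. For 24 members, both counts lay within 1 or 2 genes of what these background shares amount to. At an adjusted p under 0.05, limma called 0 members and 0% of all genes, with a smallest adjusted p of 0.455. At an unadjusted p under 0.05 it called 456 genes higher and 294 lower. Limma with voom on the recovered reads also called 0 genes after adjustment. The median log2 difference of the 24 members was -0.08, compared with 0.10 over all genes tested, where 64.8% of the differences were above 0. Among the members 10 differences were above 0 and 14 below.

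**Figure D2:**
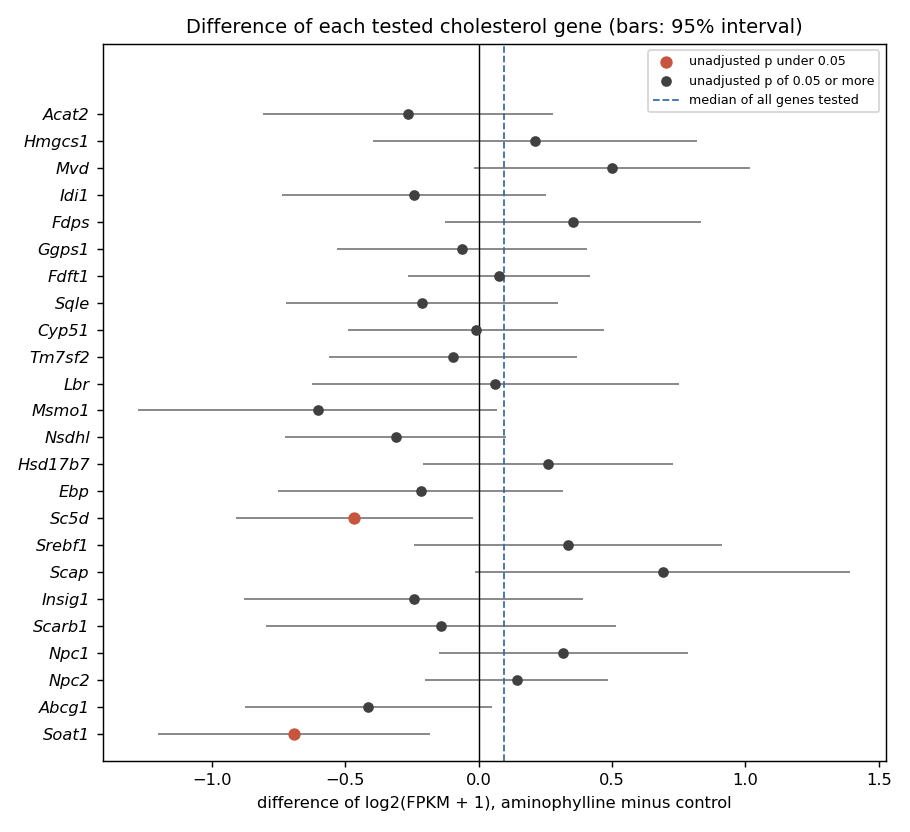
Difference of log2(FPKM + 1) between the aminophylline and control groups for the 24 cholesterol genes tested (points, limma) with its 95% interval (bars), ordered by step in the pathway. The dashed line is the median of all 10340 genes tested, 0.10. Only the intervals of Soat1 and Sc5d do not reach 0.

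Export and esterification comprised Soat1, Abcg1 and Abca1. Soat1 (chr1:156428108-156474328) had 33.7, 17.7 and 22.3 FPKM in the control libraries and 14.2, 14.9 and 13.8 FPKM in the aminophylline libraries. Every control library was above every aminophylline library, and control 1 was the highest. The difference was -0.69 on the log2(FPKM + 1) scale (SE 0.232, 95% interval -1.20 to -0.18, limma adjusted p = 0.664), and the ratio of the group means was 0.581. It was the only member called that also passed a fold of 1.5. Without control 1, the library with the macrophage markers, the difference was -0.45 and still passed the unadjusted threshold, and the part of those markers in the result with all libraries was not tested. Leaving out each library in turn gave differences from -0.90 to -0.45. The unadjusted limma p of these fits ran from 0.0019 to 0.049, the highest only just under the threshold.

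Abcg1 (chr17:31057694-31117984), a transporter that hands cholesterol to high-density lipoprotein, had 17.0, 11.5 and 15.6 FPKM in control and 9.44, 11.1 and 11.5 FPKM in the aminophylline group. The lowest control library and the highest aminophylline library overlapped narrowly, and the difference of -0.41 (SE 0.210) did not pass (limma adjusted p = 0.688). Without control 1, where Abcg1 was highest, the difference was -0.30. Abca1, the transporter that loads cholesterol onto apolipoprotein, was at or under 3 reads in 4 libraries, with 13, 0 and 7 reads in control and 0, 2 and 1 reads in the aminophylline group, too few to compare the groups. Abca1 was therefore near the detection limit in these oocytes while Abcg1 was readily measured. The summed level of the 3 genes was 50.8, 29.1 and 37.9 FPKM in control and 23.6, 26.0 and 25.3 FPKM in the aminophylline group. These ranges did not overlap, but Soat1 made up most of the sum in every library, and Abcg1 alone overlapped. The FPKM of Soat1 was 1.20 to 1.98 times that of Abcg1 with the deposited lengths and 0.689 to 1.14 times with those of GENCODE, so the order of these levels turned with the length.

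The steps after lanosterol remove methyl groups and move and reduce double bonds until cholesterol is formed. Of the 8 members tested, 1 was called lower, compared with 2.84% of all genes, and none was called higher, compared with 4.41%. Of the 8 differences 6 were below 0, whereas 64.8% of all genes had differences above 0. Sc5d (chr9:42251592-42264300) had 29.4, 19.2 and 24.7 FPKM in control and 15.5, 17.3 and 18.8 FPKM in the aminophylline group. The groups were apart, by a narrow margin between control 2 and aminophylline 3. The difference was -0.47 on the log2(FPKM + 1) scale (SE 0.202, 95% interval -0.91 to -0.02, limma adjusted p = 0.682). Without control 1 it was -0.33 and no longer passed. The call was also lost without control 3 (-0.45) and without aminophylline 1 (-0.40), 2 (-0.47) or 3 (-0.53), and it was kept without control 2 (-0.62). The call for Sc5d thus rested on nearly all libraries being present.

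Msmo1 (chr8:64718123-64733578), a methylsterol oxidase, had 30.5, 10.7 and 19.4 FPKM in control and 11.2, 11.7 and 12.9 FPKM in the aminophylline group. Its values differed by a factor of 2.85 between the highest and the lowest library, and control 2 lay below every aminophylline library. The difference of -0.60 (SE 0.306) did not pass in the unpaired fit (limma adjusted p = 0.688), and passed without adjustment with the replicate block (adjusted p = 0.232). It was -0.26 without control 1, and -0.97 without control 2, where it passed the unadjusted threshold. The value for Msmo1 therefore depended on these 2 control libraries, and the part of the macrophage markers of control 1 in it was not tested.

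Nsdhl, a sterol dehydrogenase acting with Msmo1, had 20.5, 16.4 and 18.3 FPKM in control and 14.5, 16.5 and 12.9 FPKM in the aminophylline group (difference -0.31, SE 0.189, limma adjusted p = 0.728). Hsd17b7, the reductase of the same complex, had 5.36, 4.86 and 5.34 FPKM in control and 5.34, 7.59 and 6.44 FPKM in the aminophylline group (difference 0.26, SE 0.212, adjusted p = 0.761). Nsdhl and Hsd17b7 thus did not pass, with differences of opposite sign. Ebp, the isomerase of the sterol ring, ranged from 4.19 to 7.13 FPKM in control and from 3.62 to 5.27 FPKM in the aminophylline group. Cyp51, the lanosterol demethylase, had a mean of 1.11 FPKM in control and 1.10 FPKM in the aminophylline group, with a 95% interval of the log2 difference from -0.49 to 0.47. Dhcr7, which encodes the last reductase of a branch of the pathway, was not tested and had 0.231, 0.314 and 0.488 FPKM in control and 0.393, 0.242 and 0.435 FPKM in the aminophylline group, from 20 to 70 reads.

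Lbr and Tm7sf2 encode proteins with the same sterol reductase activity, LBR in the inner nuclear membrane and TM7SF2 in the endoplasmic reticulum. Lbr had 46.2, 22.5 and 57.0 FPKM in control and 30.4, 43.5 and 51.3 FPKM in the aminophylline group, whereas Tm7sf2 stayed between 1.86 and 2.91 FPKM in all libraries. Lbr exceeded Tm7sf2 by a factor of 10.9 to 23.4 within a library, or of 24.4 to 52.4 with the lengths of GENCODE. Neither differed between groups beyond the spread, with a difference of 0.06 (SE 0.312) for Lbr and -0.10 (SE 0.211) for Tm7sf2. LBR also anchors chromatin at the nuclear envelope, so its level is not a measure of sterol synthesis alone.

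**Figure D3:**
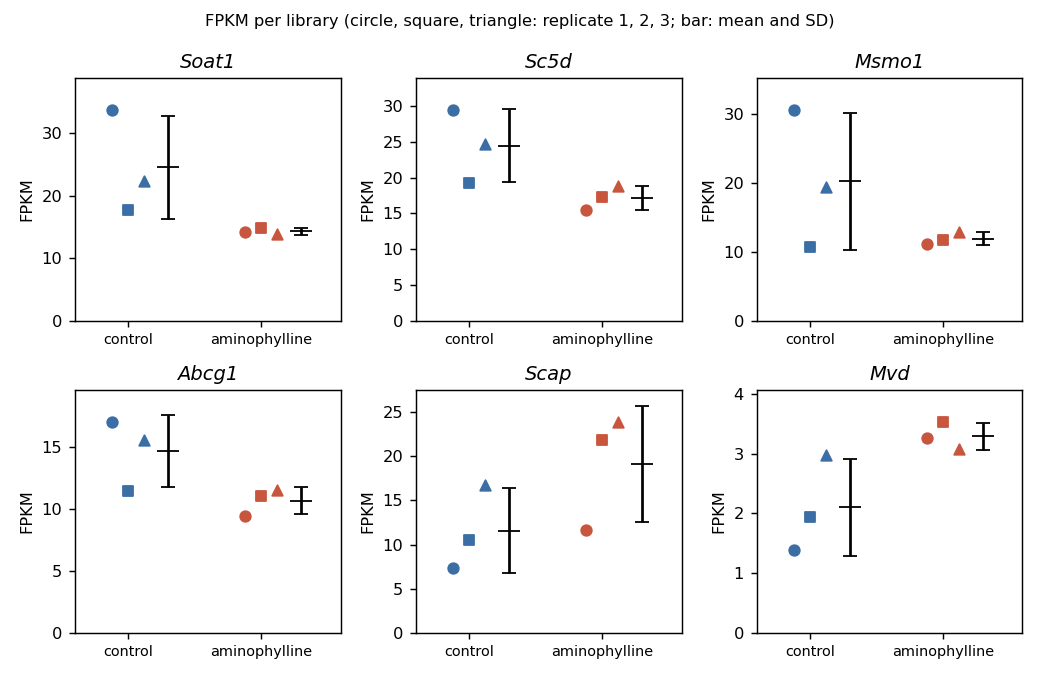
FPKM in each library for Soat1, Sc5d, Msmo1, Abcg1, Scap and Mvd, with control in blue and aminophylline in red. Circles, squares and triangles are replicates 1, 2 and 3, and the bars to their right give the mean and SD of 3 libraries. For Soat1 and Sc5d the 3 control libraries lie above the aminophylline libraries, for Mvd they lie below, and for the other genes the groups overlap.

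Sterol sensing showed higher values of Scap, which did not pass the unpaired test. Scap (chr9:110333288-110384949), the escort of SREBP, had 7.32, 10.6 and 16.8 FPKM in control and 11.6, 21.8 and 23.9 FPKM in the aminophylline group. Control 3 lay above aminophylline 1, and each aminophylline library lay above the control library of the same number. The difference was 0.69 on the log2(FPKM + 1) scale (SE 0.319, limma adjusted p = 0.687), and it was 0.43 without control 1. With the replicate block, Scap passed without adjustment (limma adjusted p = 0.104, compared with 0.104 to 0.999 over the alternatives).

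Insig1, which retains SCAP in the endoplasmic reticulum, had 58.1, 30.5 and 74.9 FPKM in control and 38.0, 39.1 and 53.3 FPKM in the aminophylline group, and the difference of -0.24 (SE 0.289) did not pass (limma adjusted p = 0.822). Its paralog Insig2 was not tested and ranged from 0.541 to 0.972 FPKM, so that Insig1 exceeded Insig2 by a factor of 40.2 to 108, or of 15.2 to 40.9 with the lengths of GENCODE. Srebf1, which encodes the SREBP better known for fatty acid genes, had 2.21, 3.25 and 4.97 FPKM in control and 3.67, 4.96 and 4.85 FPKM in the aminophylline group (difference 0.33, SE 0.262, adjusted p = 0.757). Srebf2, which encodes the SREBP better known for cholesterol genes, was at 14, 14 and 35 reads in control and 22, 31 and 36 reads in the aminophylline group, or 0.0741 to 0.223 FPKM. Srebf1 exceeded Srebf2 by a factor of 18.4 to 29.8 in every library.

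The mevalonate route turns acetyl-CoA into farnesyl and geranylgeranyl diphosphate. Of its 6 members tested none was called higher or lower in the unpaired fit, with 3 differences above 0 and 3 below. Mvd (chr8:122433596-122443422), the decarboxylase that yields isopentenyl diphosphate, had 1.38, 1.93 and 2.98 FPKM in control and 3.26, 3.53 and 3.08 FPKM in the aminophylline group, from 48 to 167 reads. Every aminophylline library was above every control library, by a narrow margin from control 3. The difference of 0.50 (SE 0.235) did not pass (limma adjusted p = 0.688), and with the replicate block it did without adjustment (adjusted p = 0.287, compared with 0.287 to 0.999 over the alternatives). Without control 1, where Mvd was lowest, the difference was 0.33.

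Hmgcs1, the synthase that makes the precursor of mevalonate, had 30.5, 19.7 and 37.6 FPKM in control and 24.1, 31.7 and 46.5 FPKM in the aminophylline group, with a difference of 0.21 (SE 0.276, limma adjusted p = 0.841). Fdps, which makes farnesyl diphosphate, had 14.7, 22.1 and 22.8 FPKM in control and 24.3, 30.3 and 21.8 FPKM in the aminophylline group (difference 0.35, SE 0.218, adjusted p = 0.728). Acat2, the thiolase that joins acetyl-CoA units, had 2.59, 1.23 and 2.79 FPKM in control and 1.36, 2.06 and 1.42 FPKM in the aminophylline group. The groups overlapped for each of these genes. Idi1, the isomerase of the isoprenoid unit, ranged from 3.26 to 5.45 FPKM in control and had 3.43 ± 0.0495 FPKM (SD, n = 3) in the aminophylline group, with a difference of -0.24 (SE 0.224). Ggps1, which leads to geranylgeranyl groups on proteins, differed by -0.06 (SE 0.213).

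The kinases Mvk and Pmvk, which phosphorylate mevalonate in turn, were under the filter. Mvk had 17, 0 and 0 reads in control and 1, 8 and 0 reads in the aminophylline group, and was at or under 3 reads in 4 libraries. Pmvk had 21, 15 and 61 reads in control and 59, 54 and 38 reads in the aminophylline group, or 0.184 to 0.641 FPKM. Mvk had too few reads to compare the groups, and Pmvk did not pass when tested with no filter (limma adjusted p = 0.836). The other members of the route were at 1.23 to 46.5 FPKM.

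From squalene to lanosterol, Fdft1 (chr14:63145150-63181687) had 91.6, 100.3 and 101.3 FPKM in control and 107.2, 111.2 and 91.5 FPKM in the aminophylline group. It varied by a factor of 1.21 between the highest and lowest library, and the 95% interval of its log2 difference was -0.26 to 0.42. Sqle, the epoxidase and a control point of synthesis, had 2.19, 2.40 and 4.005 FPKM in control and 2.27, 2.53 and 2.02 FPKM in the aminophylline group. Fdft1 thus exceeded Sqle by a factor of 25.3 to 47.3 within a library, or of 116 to 216 with the lengths of GENCODE. Lss, the cyclase that forms lanosterol, was not tested and had 0.0817, 0.215 and 0.550 FPKM in control and 0.174, 0.380 and 0.435 FPKM in the aminophylline group. The last steps of this stretch were therefore measured at far lower levels per length than the first.

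Uptake and lysosomal release was represented by the lipoprotein receptor Scarb1 and the lysosomal cholesterol carriers Npc1 and Npc2. Npc2, the soluble carrier, had 41.8, 38.6 and 43.8 FPKM in control and 46.7, 46.4 and 44.1 FPKM in the aminophylline group. Its groups did not overlap, but the difference was small at 0.14 (SE 0.157, limma adjusted p = 0.810). Npc1, the membrane protein that receives cholesterol from NPC2, had 13.7, 12.7 and 17.8 FPKM in control and 14.7, 20.9 and 20.4 FPKM in the aminophylline group (difference 0.32, SE 0.213, adjusted p = 0.728). Scarb1, which takes up cholesterol from high-density lipoprotein, had 1.88, 3.91 and 5.87 FPKM in control and 3.22, 2.81 and 3.49 FPKM in the aminophylline group. The 3 control libraries of Scarb1 enclosed all aminophylline libraries. Npc2 exceeded Npc1 by a factor of 2.17 to 3.18.

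Among the members tested, the groups did not overlap with higher values in the aminophylline group for 2, Npc2 and Mvd, compared with 7.51% of all genes, and with lower values for 2, Soat1 and Sc5d, compared with 4.96% of all genes. An exact two-sided permutation test of 3 against 3 libraries gives p = 0.1 for each of them, which is the smallest p this design allows. With the replicate block, limma called Mvd and Scap higher, compared with 9.88% of all genes, and Msmo1, Sc5d and Soat1 lower, compared with 4.3% of all genes. Under the block the limma adjusted p was 0.114 for Soat1, compared with 0.104 to 0.999 over its alternatives, 0.279 for Sc5d, compared with 0.156 to 0.999, and 0.232 for Msmo1, compared with 0.102 to 0.999. No member passed an adjusted p under 0.05 under the block, where 35 of all genes were higher and 12 lower at that level.

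The libraries of the control group were spread more widely than those of the aminophylline group. The SD of the FPKM was larger in control for 18 of the 24 members tested, compared with 70.2% of all genes tested. The median coefficient of variation was 28.4% in control and 14.05% in the aminophylline group, compared with 25.6% and 16.2% over all genes tested. Control 2, the library with the fewest reads, had the lowest value for 10 of the 24 members, compared with 29.0% of all genes, and the highest for 0, compared with 11.9%. Control 3 had the highest value for 8 members, compared with 24.4% of all genes, and control 1 for 7, compared with 14.5%.

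**Figure D4:**
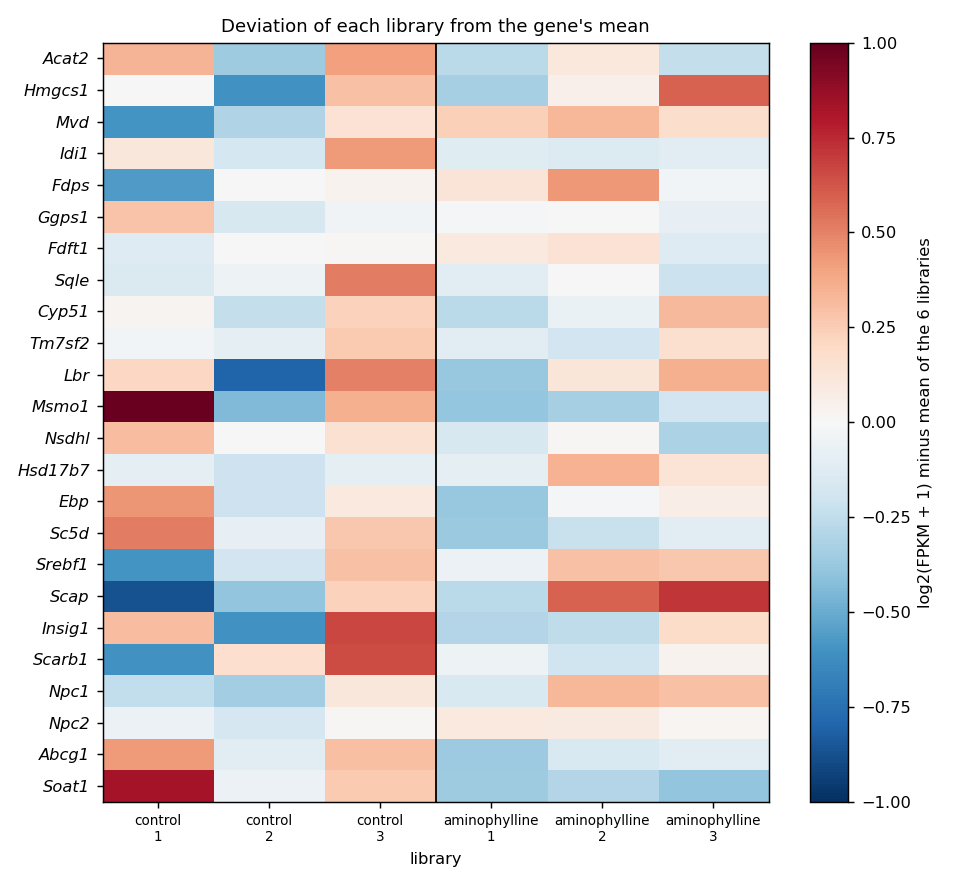
Deviation of each library (columns) from the mean of the 6 libraries for the 24 cholesterol genes tested (rows), on the log2(FPKM + 1) scale, red for higher and blue for lower. The black line divides control from aminophylline. Soat1 and Sc5d are blue in all 3 aminophylline columns and Msmo1 and Soat1 are darkest red in control 1.

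Other genes of cholesterol handling were counted in lists beside the members. Of 8 tested genes of SREBP processing and sterol-regulated degradation, 1 was called lower and none was called higher. It was Rnf139, a ubiquitin ligase of the endoplasmic reticulum, with 19.7, 9.54 and 16.3 FPKM in control and 8.70, 10.02 and 9.11 FPKM in the aminophylline group (difference -0.60, SE 0.254, limma adjusted p = 0.682). The groups overlapped for Rnf139, and it was highest in control 1, as Soat1 was. No gene was called among 13 tested of the isoprenoid branches, 14 of intracellular sterol transport and ester turnover and 5 of lipoprotein receptors and adaptors. The same held for 6 of liver X receptors and oxysterol enzymes and 4 of acetyl-CoA supply. These counts are to be read against 4.41% of all genes higher and 2.84% lower. With the replicate block, Vcp of SREBP processing and Icmt of the isoprenoid branches were also higher and Cd36 of the lipoprotein receptors lower without adjustment, compared with 9.88% and 4.3% of all genes, and these 3 are named after their values were seen. Cd36 was at 25.1 FPKM in control 1 and at 10.8 to 16.5 FPKM in the other libraries. Leaving out each library in turn gave unpaired differences from -0.71 to -0.24 for Cd36, and the part of the macrophage markers of control 1 in it was not tested. The medians of the log2 differences were 0.14 for SREBP processing, 0.05 for the isoprenoid branches, 0.05 for sterol transport, 0.17 for lipoprotein receptors, 0.003 for liver X receptors and 0.12 for acetyl-CoA supply, compared with 0.10 over all genes tested.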

How the data were processed

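RNA was sequenced in 6 oocyte libraries, grouped as control and aminophylline by their labels. The authors deposited FPKM values per gene (fragment counts over transcript length and library total), with no further scaling between libraries. The genome build in the submitters' processing notes is GRCm38 (mm10), and the aligner, counter, annotation and strand setting are not given in the sources used here. The library totals were recovered from the ratios of FPKM values, which came out as whole reads for 100% of 22583 genes (tolerance 0.0001 reads), and 3 reads served as the floor. Floors cover counting error only.

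Differences were tested with limma 3.58.1 in R 4.3.3 (two-sided, moderated variance with a trend) on log2(FPKM + 1), which understates the change of low genes, for genes with at least 1 FPKM in at least 3 libraries. P-values were adjusted by Benjamini-Hochberg over 10340 genes. A p under 0.05 without adjustment was the rule for a call. All 31 members are named, and genes of the other lists where they passed this rule. The call of 1 further gene of these lists is not reported here. The members, lists and motifs were chosen with earlier results of these data known.

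Where libraries shared a number, their deviations from the group means correlated at 0.138, 0.140 and 0.552, each over 0.1, so the fit with the replicate block is given beside the unpaired fit, which follows the study's unpaired test. The numbers come from the labels, which name no shared mice, and control 2 with aminophylline 1 correlated at 0.423. Alternatives were a pseudocount of 0.1, other filters, TPM, median centring, quantile normalization, an unmoderated model, the replicate block, voom on recovered reads and leaving out each library. GENCODE M21 and RefSeq (GRCm38.p6) gave lengths, positions and promoters. The code was tested on simulated data. Plots were made with matplotlib 3.10.9.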

Additional observations from a re-analysis of the deposited data

How the results depend on the processing

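Soat1 kept its direction under every alternative run and its call under all but the unmoderated model, while Sc5d lost its call under that model and in 5 of the 6 fits without a library. Of all values of single members under the alternatives, 312 kept direction and side of the threshold, 18 newly passed, 7 no longer did, and 14, none of them past the threshold, changed sign. The changes of sign were Fdft1 (-0.0057) and Lbr (-0.0196) with median centring, Lbr with voom (-0.0028), and fits without a library, which ran from -0.0402 to 0.428 for Hmgcs1, -0.158 to 0.063 for Ggps1, -0.176 to 0.122 for Cyp51, -0.200 to 0.0111 for Tm7sf2, -0.323 to 0.329 for Lbr, -0.607 to 0.0279 for Insig1 and -0.479 to 0.147 for Scarb1. The cause of the shifts below was not tested. All genes higher numbered 456 in the fit as reported, 917 with no filter, 294 with a mean of at least 5 FPKM, 281 with TPM, 281 with median centring, 1022 with the replicate block, 215 with a fold over 1.5 added, 0 with adjusted p, and 203 (without aminophylline 2) to 1219 (without control 3) without a library, with 214 without control 1, 865 without control 2 and 249 without aminophylline 3. All genes lower numbered 294 as reported, 487 with no filter, 502 with median centring, 528 with quantile normalization, 445 with the replicate block, 117 with the fold added, 0 with adjusted p, and 126 (without aminophylline 2) to 752 (without control 2) without a library, with 155 without control 1, 163 without aminophylline 1 and 179 without aminophylline 3. Members higher numbered 0 as reported, 1 (Scap) with median centring and with quantile normalization, 2 (Mvd and Scap) with the replicate block, and 0 to 3 without a library. Members lower numbered 2 as reported, 4 with median centring and with quantile normalization (Abcg1 and Msmo1 added), 3 with the replicate block and with voom, 0 with the unmoderated model, 1 with the fold added, 0 with adjusted p, and 1 (without control 1, control 3 or an aminophylline library) to 6 (without control 2) without a library. The median log2 difference of the members, -0.08 as reported, was 0.062 with a mean of at least 5 FPKM, and ran from -0.166 to 0.064 without a library (highest without control 3). Median centring moved the median of all genes from 0.10 to 0.01. The replicate block changed no other call among the members. With the lengths of GENCODE, 10 of the 31 levels moved by more than their spread, an alternative added after the data were seen, and with TPM none did. Few reads limited the comparison for Mvk and Abca1, which were at or under 3 reads in 4 libraries.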
